A study of Mus musculus with 4 samples.

Results

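The antigen receptor segments of this data set are the rows whose deposited biotype begins with TR_ or IG_, that is, the gene segments that encode T cell receptors and immunoglobulins. There were 5 such rows among the 282 genes of the deposited table. They are the constant segments Tcrg-C1 and Tcrg-C4 of the T cell receptor gamma locus, the variable segments Trav4n-4 and Trav19 of the T cell receptor alpha locus, and Igkc, the constant segment of the immunoglobulin kappa light chain. RNA was sequenced from 4 libraries of Tregs, which are CD4 T cells that express Foxp3 and hold immune responses in check. The cells were taken from the lymph nodes and spleen of males aged 6 to 8 weeks. All cells came from Foxp3RFP-Cre.RosaYFPMll1fl/fl mice, in which Foxp3-driven Cre removes the floxed Mll1 alleles, the gene of the histone methyltransferase MLL1, and switches on YFP. The 2 RFP+YFP+ libraries carried the label MLL1KO and the 2 RFP+YFP- libraries the label WT, so the YFP-negative cells bore the floxed alleles and the Cre transgene too and differed by the sort on YFP. Each population had a library under mouse numbers 1 and 2, and it is not stated whether a number is a single animal or a pool. The values are normalized counts, which are gene read counts divided by a size factor for each library.

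The genes of T cell receptors and antibodies are assembled in developing lymphocytes by joining a variable to a joining segment. At the beta, delta and heavy chain loci a diversity segment lies between them. The constant segment is attached in the RNA by splicing. Most CD4 T cells, Tregs included, carry a receptor of an alpha and a beta chain, whereas gamma chains pair with delta chains in gamma delta T cells. The kappa constant segment is transcribed at very high levels in B cells and plasma cells. RNA from a variable segment is contributed by the cell clones that use it, so its level in a bulk library follows the clones present as well as the transcription in each cell. In bulk libraries of this kind, fewer cells of a type and less RNA per cell cannot be told apart.

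The direction followed the locus. Both gamma constant segments were higher in YFP-positive Tregs, and both alpha variable segments and Igkc were lower. By segment type, the 3 constant segments split into 2 higher and 1 lower, and the 2 variable segments were both lower. The groups did not overlap for any of the 5, as for 100% of the 282 listed genes. By limma with Benjamini-Hochberg adjustment over the 282 genes, 5 of 5 segments passed an adjusted p of 0.05, against 100% of listed genes, with 2 higher (30.5% of listed genes were higher) and 3 lower (69.5% were lower). The authors had listed a gene only where it passed their own threshold on these 4 libraries. These counts, and the limma p-values given below for this contrast, thus describe the list and are not evidence about the segments. Pseudogenes aside, GENCODE annotates 494 T cell receptor and immunoglobulin segments in mouse, with 15 at the gamma locus, 160 at the alpha locus and 106 at the kappa locus. The other segments, including every beta, delta, heavy chain and lambda segment, have no value here.

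**Figure D1:**
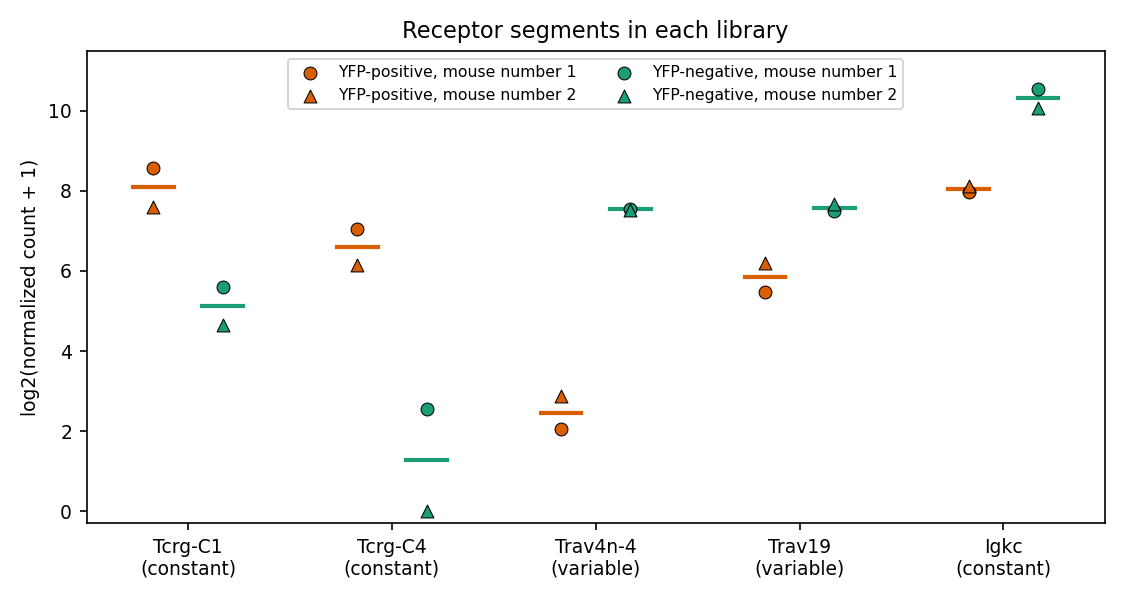
Level of each receptor segment in the 4 libraries, as log2(normalized count + 1). Circles are mouse number 1, triangles are mouse number 2, and the short line is the mean of the log2 values of a group. Tcrg-C1 and Tcrg-C4 lie higher in YFP-positive libraries, and Trav4n-4, Trav19 and Igkc lie higher in YFP-negative libraries.

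The gamma locus of the mouse holds 4 annotated constant segments on chromosome 13, of which Tcrg-C1 (ENSMUSG00000076749, 19214103 to 19217024, plus strand) and Tcrg-C4 (ENSMUSG00000076757, 19344558 to 19352756, plus strand) were listed. They lie 127.5 kb apart on mm10. The first constant exon encodes the immunoglobulin-like domain of the chain. The first 300 of its 330 bases are shown for Tcrg-C4, the segment with the largest rise, because this exon has no close copy in the locus.
Tcrg-C4 exon 1, chr13:19344558-19344857, plus strand: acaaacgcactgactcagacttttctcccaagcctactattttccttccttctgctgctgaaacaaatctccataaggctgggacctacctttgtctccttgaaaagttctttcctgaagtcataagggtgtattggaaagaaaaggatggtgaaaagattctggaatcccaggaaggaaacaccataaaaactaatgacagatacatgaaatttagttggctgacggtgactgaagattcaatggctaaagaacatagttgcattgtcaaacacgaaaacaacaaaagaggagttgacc
The first exons of Tcrg-C1 and Tcrg-C4 differed at 59 of 330 bases and were 82.1% identical, and the longest run without a difference was 29 bases. The first exon of Tcrg-C1 was closer to those of Tcrg-C2 (9 differing bases, 97.3% identity) and Tcrg-C3 (13 differing bases, 96.1% identity), which have no value here.

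The exons that follow encode the connecting region between this domain and the membrane and show the same grouping. They are given for all 4 gamma constant segments because their number and length differ.
Tcrg-C1 exon 2, chr13:19215864-19215908, plus strand: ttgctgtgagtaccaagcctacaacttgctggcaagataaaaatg
Tcrg-C2 exon 2, chr13:19305769-19305798, minus strand: ttgctacaacttgctggcaagataaaaatg
Tcrg-C3 exon 2, chr13:19262644-19262687, plus strand: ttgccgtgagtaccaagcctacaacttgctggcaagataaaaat
Tcrg-C4 exon 2, chr13:19349536-19349589, plus strand: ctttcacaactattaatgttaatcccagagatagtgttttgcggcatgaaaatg
Tcrg-C4 exon 3, chr13:19350330-19350374, plus strand: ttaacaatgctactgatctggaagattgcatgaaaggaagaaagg
Tcrg-C4 had 2 such exons, of 54 and 45 bases, where Tcrg-C1 had 1 of 45 bases. Of the 50-base words of the Tcrg-C1 transcript, 34.2% occurred in a transcript of another gene, 22.2% in Tcrg-C3 and 17.9% in Tcrg-C2. Of the Tcrg-C4 transcript, 0% of the words occurred elsewhere, also with words of 31 bases. The count of Tcrg-C1 could therefore include or lose reads of Tcrg-C2 and Tcrg-C3, whereas no annotated transcript shares a 31-base word with Tcrg-C4.

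Tcrg-C1 was counted at 380 and 193 in the YFP-positive libraries of mouse numbers 1 and 2, and at 47.1 and 24.3 in the YFP-negative libraries. The lower YFP-positive library was above both YFP-negative libraries. Group means were 286 ± 132 and 35.7 ± 16.1 normalized counts (SD, n = 2 each), and limma gave a log2 difference of 2.96 ± 0.48 (SE; adjusted p = 1.09e-06). Within mouse number 1 the YFP-positive library was 8.07 times the YFP-negative library, and within mouse number 2 it was 7.94 times. Exact 95% intervals of these ratios, from the inferred reads and covering counting error only, were 5.96 to 11.1 and 5.28 to 12.4.

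Tcrg-C4 was counted at 132 and 70.0 in the YFP-positive libraries and at 4.90 and 0 in the YFP-negative libraries of mouse numbers 1 and 2. The inferred reads were 127 and 66 against 5 and 0. Both YFP-negative libraries were thus close to the limit of detection. In mouse number 1 the YFP-positive library was 26.9 times the YFP-negative one (counting interval 11.2 to 84.4). In mouse number 2, where the YFP-negative library had no read, the counting interval of the ratio began at 20.5 and had no upper end. Against a floor of 3 reads per library, the ratio there was 25.9. In the authors' deposited table Tcrg-C4 had the largest log2 fold change of the 86 higher genes, 5.41, and Tcrg-C1 ranked 11 with 3.01. Limma gave a log2 difference of 5.32 ± 0.78 (SE) for Tcrg-C4, and this size rests on the pseudocount, with 7.09 at a pseudocount of 0.1 and 3.85 at a pseudocount of 5. Without the YFP-negative library of mouse number 2 it was 4.04, and without that of mouse number 1 it was 6.60.

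Summed, Tcrg-C1 and Tcrg-C4 had normalized counts of 512 and 263 in YFP-positive Tregs and 52.0 and 24.3 in YFP-negative Tregs. Tcrg-C2 and Tcrg-C3 have no value here, so this is not a total of the locus. The sum was 9.85 times higher in YFP-positive cells of mouse number 1 and 10.8 times higher in those of mouse number 2. With 2 libraries against 2, the two-sided exact permutation test of the sum gave p = 0.333, the smallest p this design can give. Tcrg-C4 made up 25.8% (exact 95% interval 22.0 to 29.9) and 26.6% (21.2 to 32.6) of the reads of the pair in the YFP-positive libraries. It made up 9.43% (3.13 to 20.7), 5 of 53 reads, in YFP-negative mouse number 1. In YFP-negative mouse number 2 it was 0 of 27 reads, for which the exact interval reached 12.8% and a floor of 3 reads is a share of 11.1%. The share of Tcrg-C4 was higher in both YFP-positive libraries than in either YFP-negative one. This comparison was chosen after the values were seen, and the difference was not tested. The intervals cover counting error only and leave out variation between mice. Tcrg-C1 could include or lose reads of Tcrg-C2 and Tcrg-C3, which would shift the share. Both segments were listed on this contrast, so the share restates that Tcrg-C4 had the larger fold change.

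**Figure D2:**
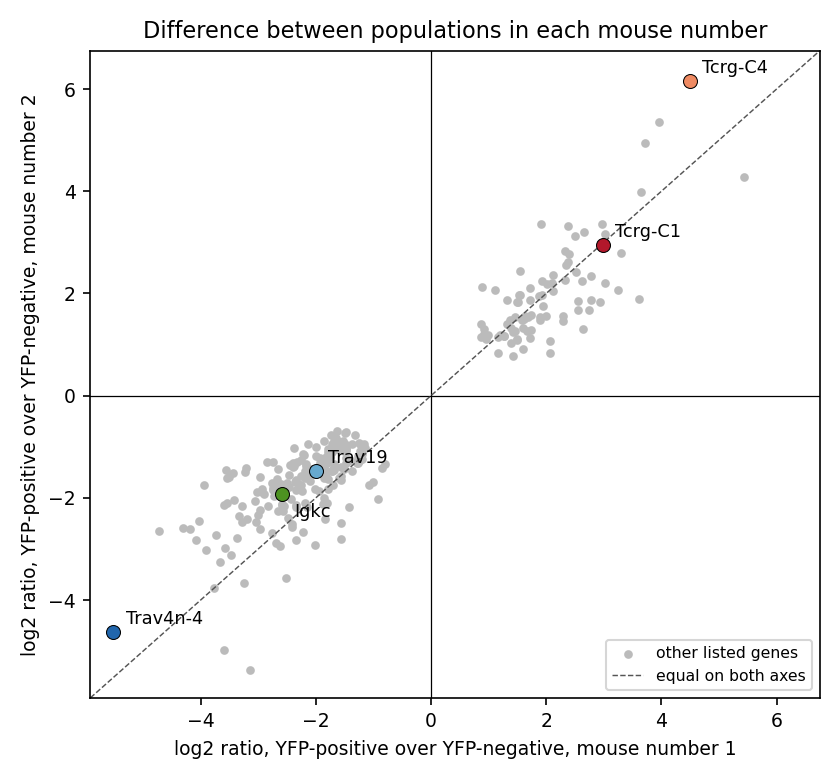
Log2 ratio of YFP-positive over YFP-negative, on log2(normalized count + 1), in mouse number 1 (horizontal) and mouse number 2 (vertical) for the 282 listed genes, with the receptor segments in colour. Tcrg-C1 lies on the dashed line of equal ratios at 2.99 and 2.94, Tcrg-C4 lies above it at 4.49 and 6.15, and Trav4n-4 lies at -5.51 and -4.63.

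Trav4n-4 (ENSMUSG00000093969) lies on the plus strand of chromosome 14, from 53302036 to 53302559. The alpha locus carries duplicated blocks of variable segments, and the second exon of Trav4n-4, which encodes the variable domain, is shown with a near copy. The same exon of Trav4d-4 (52991111 to 52991389) had 0 differing bases over 279, and its leader exon had 0 over 52. Capitals mark the 8 of 279 bases at which Trav4n-4 and Trav4-4-dv10 differ.
Trav4n-4 exon 2, chr14:53302281-53302559, plus strand: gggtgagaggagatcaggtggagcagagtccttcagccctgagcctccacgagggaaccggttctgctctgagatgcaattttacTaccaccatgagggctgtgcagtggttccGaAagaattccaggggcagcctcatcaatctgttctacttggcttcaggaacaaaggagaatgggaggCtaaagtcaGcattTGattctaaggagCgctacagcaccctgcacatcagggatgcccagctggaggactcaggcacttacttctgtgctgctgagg
Trav4-4-dv10 exon 2, chr14:53683899-53684177, plus strand: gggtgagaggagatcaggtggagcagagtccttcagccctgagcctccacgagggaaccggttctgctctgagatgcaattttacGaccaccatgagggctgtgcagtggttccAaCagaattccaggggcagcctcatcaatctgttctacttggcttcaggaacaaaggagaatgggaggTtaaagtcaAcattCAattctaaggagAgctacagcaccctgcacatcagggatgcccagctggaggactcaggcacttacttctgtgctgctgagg
Every 50-base word of the Trav4n-4 transcript (100%) also occurred in Trav4d-4, and 47.2% occurred in Trav4-4-dv10. The sources used here do not say how the counting treated reads that match several genes. The count of Trav4n-4 therefore cannot be told apart from that of Trav4d-4 by its exons, and Trav4d-4 has no value here.

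Trav4n-4 was counted at 3.12 and 6.36 in the YFP-positive libraries and at 187 and 182 in the YFP-negative libraries of mouse numbers 1 and 2. Only 3 and 6 reads lay behind the YFP-positive values, against 191 and 202. The YFP-negative libraries differed by less than the YFP-positive ones in proportion, with a ratio of 1.03 between mouse numbers 1 and 2. Group means were 4.74 ± 2.29 against 185 ± 3.88 (SD, n = 2 each). The YFP-negative library was 60.0 times the YFP-positive one in mouse number 1 (counting interval 20.2 to 294) and 28.6 times in mouse number 2 (12.9 to 78.8). In the authors' deposited table its log2 fold change of -5.29 was the second largest of the 196 lower genes. Limma gave -5.07 ± 0.61 (SE; adjusted p = 3.94e-09), and -4.30 with a pseudocount of 5.

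Trav19 (ENSMUSG00000076862), another alpha variable segment, lies 542.7 kb from Trav4n-4, at 53845234 to 53845827 on the plus strand of chromosome 14. The first 300 of the 306 bases of its second exon are shown because, unlike Trav4n-4, it has no near copy among the annotated transcripts.
Trav19 exon 2, chr14:53845522-53845821, plus strand: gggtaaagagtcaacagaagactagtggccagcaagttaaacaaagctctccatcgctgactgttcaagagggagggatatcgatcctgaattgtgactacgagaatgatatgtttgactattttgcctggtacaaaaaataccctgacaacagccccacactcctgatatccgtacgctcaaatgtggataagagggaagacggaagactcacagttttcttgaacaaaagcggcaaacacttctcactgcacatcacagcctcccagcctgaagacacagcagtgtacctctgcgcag
Of the words of its transcript, 0% with 50 bases and 2.88% with 31 bases occurred in another gene, the processed pseudogene Gm11813. Trav19 was counted at 43.7 and 72.1 in the YFP-positive libraries and at 178 and 202 in the YFP-negative libraries. All YFP-positive values were below both YFP-negative values, with a gap wider than the spread within either group. The YFP-negative library was 4.09 times the YFP-positive one in mouse number 1 (counting interval 2.91 to 5.86) and 2.81 times in mouse number 2 (2.13 to 3.74). The log2 difference was -1.74 ± 0.46 (SE; limma adjusted p = 0.000502). Without the YFP-negative library of mouse number 2 it was -1.65 and no longer passed (limma adjusted p = 0.0640; the other alternatives gave 0.000222 to 0.0454).

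The variable segments differed in size of change. Their YFP-negative levels were close, at 187 and 182 normalized counts for Trav4n-4 and 178 and 202 for Trav19. Per kilobase of transcript, Trav4n-4 stood at 529 and 513 and Trav19 at 400 and 454 in those libraries. In the YFP-positive libraries the per-kilobase levels were 8.81 and 18.0 for Trav4n-4 and 97.9 and 162 for Trav19. Per kilobase, the ranges of the pair did not overlap in either population, and their order was opposite in the populations. In YFP-negative Tregs this order rests on the division by length, since the normalized counts overlapped. The count of Trav4n-4 also cannot be told apart from that of Trav4d-4, so its level against Trav19 is uncertain. The 2 other listed genes within 1000 kb of a variable segment were lower, as were 69.5% of all listed genes. They were Abhd4, a lipase gene 408.4 kb from Trav19 (196 and 291 against 754 and 765 normalized counts), and Mmp14, a membrane metalloproteinase gene 585.8 kb from it (46.8 and 23.3 against 140 and 136). The alpha joining and constant segments have no value here.

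Igkc (ENSMUSG00000076609, chromosome 6, 70726435 to 70726966, plus strand) encodes the constant domain of kappa light chains in 1 exon. The first 300 of its 320 coding bases are shown because 0% of the 31-base words of its transcript occurred in any other annotated gene, so reads from it have no second annotated source.
Igkc exon 1, chr6:70726435-70726734, plus strand: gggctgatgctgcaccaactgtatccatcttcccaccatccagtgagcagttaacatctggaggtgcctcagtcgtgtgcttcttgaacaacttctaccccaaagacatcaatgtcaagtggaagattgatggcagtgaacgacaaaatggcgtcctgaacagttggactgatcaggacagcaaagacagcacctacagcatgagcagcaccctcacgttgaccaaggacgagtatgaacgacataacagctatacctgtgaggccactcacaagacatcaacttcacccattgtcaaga
Igkc was counted at 249 and 280 in the YFP-positive libraries and at 1503 and 1072 in the YFP-negative libraries of mouse numbers 1 and 2. The YFP-negative libraries were both higher and farther apart than the YFP-positive ones. The YFP-negative library was 6.05 times the YFP-positive one in mouse number 1 (counting interval 5.27 to 6.96) and 3.83 times in mouse number 2 (3.35 to 4.39), and these counting intervals did not overlap. The log2 difference was -2.26 ± 0.34 (SE; limma adjusted p = 3.68e-07). Of the 25 B cell markers chosen for comparison, Igkc was the 1 listed gene, and it fell. Those 25 do not hold every B cell gene. Cd72 and H2-Ob, which B cells also express, are outside them and were higher in YFP-positive Tregs, as were 30.5% of listed genes. Their log2 ratios in mouse numbers 1 and 2 were 1.62 and 1.51 for Cd72 and 1.72 and 1.88 for H2-Ob. Of 15 plasma cell markers, Prdm1, which encodes the regulator Blimp-1 and is also expressed in effector Tregs, was the 1 listed gene. It was counted at 111 and 198 against 512 and 556, a log2 difference of -1.84 ± 0.37. The other 24 B cell and 14 plasma cell markers, among them Cd79a, Ms4a1, Ighm and Jchain, have no value here, so the part of B lineage RNA in the Igkc counts was not tested.

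Per kilobase of transcript, Igkc had the highest level of the 5 segments in every library, at 467 and 526 in YFP-positive and 2825 and 2014 in YFP-negative Tregs. In YFP-positive Tregs Tcrg-C1 followed at 411 and 209. Trav19, at 97.9 and 162, and Tcrg-C4, at 134 and 71.0, overlapped and cannot be ordered. Trav4n-4 was lowest. In YFP-negative Tregs the order after Igkc was Trav4n-4, Trav19, Tcrg-C1 at 50.9 and 26.3 and Tcrg-C4 at 4.98 and 0, and no neighbours in this order overlapped. The places of Trav4n-4 and Tcrg-C1 are uncertain to the extent that reads were shared with unlisted segments. By level per length, Igkc ranked 25 and Tcrg-C4 ranked 166 among the 282 listed genes.

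**Figure D3:**
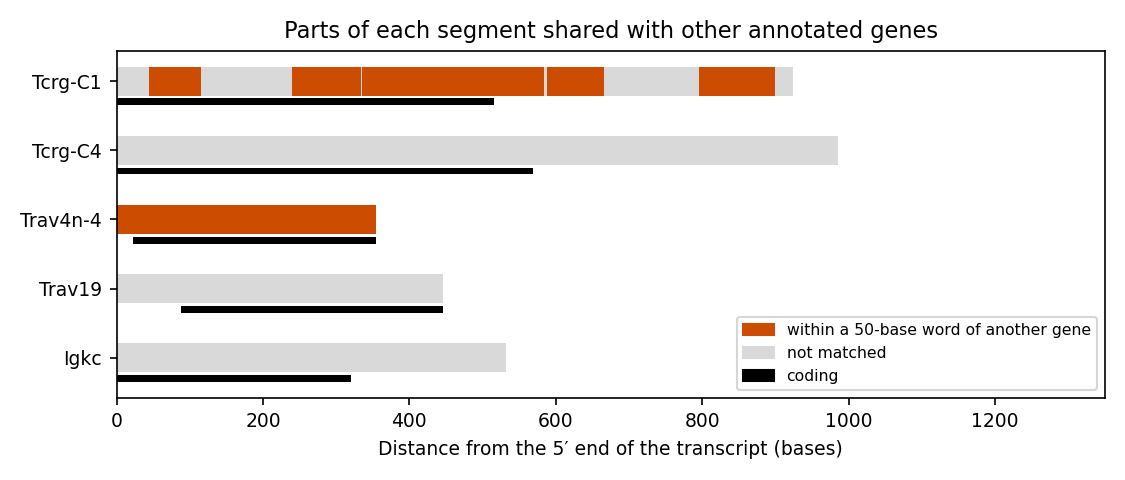
Bases of each segment's transcript that lie within a 50-base word also found in the transcript of another annotated gene (orange), by distance from the 5′ end. Black bars mark the coding part. The whole Trav4n-4 transcript and parts of Tcrg-C1 are shared, and no base of Tcrg-C4, Trav19 or Igkc is.

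The mouse numbers are not the contrast on which the authors listed genes. The listing was still not free of them, because a wide spread within a population makes a gene less likely to pass. The counts and ranks below hold for the listed genes only. Tcrg-C1 was higher in mouse number 1 than in mouse number 2 by a factor of 1.97 in YFP-positive and of 1.94 in YFP-negative Tregs. Tcrg-C4 was higher in mouse number 1 by a factor of 1.89 in YFP-positive Tregs and had 5 reads against 0 in YFP-negative Tregs. Of the 282 listed genes, 24.1% were higher in mouse number 1 in both populations. On the mean log2 difference of both populations, Tcrg-C4 ranked first and Tcrg-C1 ranked 9 among the 282 genes. The rank of Tcrg-C4 rests on the 5 reads against 0 of the YFP-negative libraries. By the YFP-positive libraries alone, Tcrg-C1 ranked 10 and Tcrg-C4 ranked 12. In a limma fit with the population in the model, the mouse difference was 0.95 ± 0.31 (SE) for Tcrg-C1 and 1.73 ± 0.68 for Tcrg-C4, each with an adjusted p of 0.501. By that limma fit, 0 of the 282 genes (0%) passed an adjusted p of 0.05, and 24 had an unadjusted p under 0.05. The gamma segments were the 2 of the 5 receptor segments among those 24. For Igkc, Trav19 and Trav4n-4 the mouse difference was 0.16 ± 0.27, -0.45 ± 0.32 and -0.40 ± 0.49. Trav4n-4 and Igkc had opposite signs in the populations. This fit was chosen after the values were seen.

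**Figure D4:**
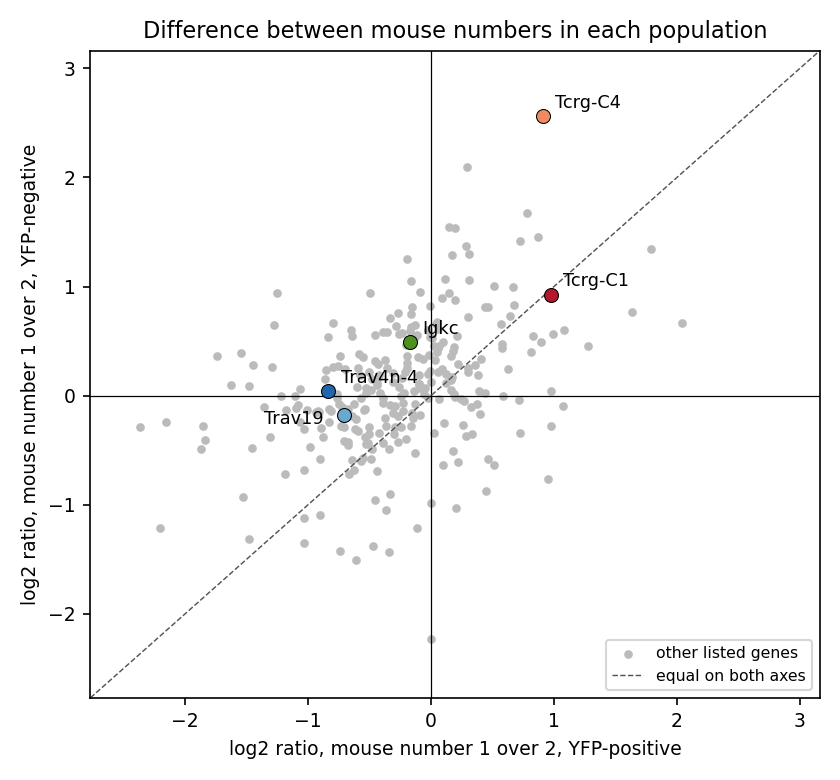
Log2 ratio of mouse number 1 over mouse number 2, on log2(normalized count + 1), in YFP-positive (horizontal) and YFP-negative (vertical) Tregs for the 282 listed genes. Tcrg-C1 lies at 0.97 and 0.93 near the dashed line of equal ratios, and Tcrg-C4 at 0.91 and 2.56, where the second value rests on 5 reads against 0.

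Of 20 gamma delta T cell genes, 5 were listed. The 2 gamma constant segments rose, and the other 3 fell, Maf and 5830411N06Rik among them. 5830411N06Rik, a scavenger receptor-like gene, was counted at 12.5 and 10.6 against 90.2 and 73.8, a log2 difference of -2.72 ± 0.60. Maf, a transcription factor gene that effector Tregs express too, was counted at 462 and 643 against 1401 and 1963. The listed gamma delta genes thus moved in both directions, with the constant segments opposite to the other 3. Trdc, Sox13, Cd163l1, Il23r and Zbtb16 have no value here, so the part of gamma delta T cell RNA in the gamma segment counts was not tested.

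Of 22 regulators of the gamma locus, among them Il7r and Stat5a, 2 were listed and both fell, where 69.5% of all listed genes were lower. Id2, which encodes an inhibitor of E proteins, was counted at 2281 and 2273 in YFP-positive and 9768 and 6759 in YFP-negative Tregs, a log2 difference of -1.83 ± 0.39. Gata3, a T cell transcription factor gene, was counted at 1502 and 1465 against 3543 and 2823, a log2 difference of -1.09 ± 0.35. Of 20 genes of the T cell receptor complex and its coreceptors, the 2 gamma constant segments were the listed ones. Of 30 genes of T cell receptor signalling, such as Lck and Zap70, and 10 genes of segment recombination, such as Rag1, 0 were listed and so have no value here. Of 9 CD8 T cell and 11 natural killer cell markers, 2 each were listed. They were Ccl5 and Gzma, and Gzma and Gzmb, 3 genes in all, which were lower, as were 69.5% of listed genes. Outside these marker lists, other genes that such cells express moved in both directions. Ctsw was higher in YFP-positive Tregs (log2 ratios of 1.89 and 1.54 in mouse numbers 1 and 2), and Cst7 was lower (-1.72 and -0.94). Of 13 natural killer T and MAIT cell genes, Tbx21 was the 1 listed gene, at 74.9 and 76.3 against 285 and 187. None of 13 myeloid markers was listed. Of 13 Treg identity genes, Gpr83, an orphan receptor gene, was the 1 listed gene and rose, with 5443 and 4259 against 1752 and 1442 (log2 difference 1.60 ± 0.36). Foxp3 and Mll1 have no value here, so the Treg label and the deletion were not checked.

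Profiles over the 4 libraries were compared within the list by the Euclidean distance between centred log2 values, over 4 libraries and without a test. Tcrg-C1 was nearest to Sorcs2, a sortilin-related receptor gene (distance 0.26), followed by Lbp and 1700025G04Rik. Sorcs2 was counted at 182 and 113 in YFP-positive and 21.6 and 11.7 in YFP-negative Tregs, so it too was higher in mouse number 1 in both populations. Tcrg-C4 was nearest to Stra6, a retinol transporter gene, at a distance of 1.12, followed by Ntn4 and Selp. Trav4n-4 was nearest to the chemokine receptor gene Ccr1 at 1.43, followed by Ltb4r1 and Sostdc1. The nearest profiles of Tcrg-C4 and Trav4n-4 were thus farther away than those of the other 3 segments. The distance is not scaled to the size of the change, and their log2 differences, 5.32 and -5.07, were the largest among the segments. Each also rested on few reads in 1 population. Trav19 was nearest to the long noncoding RNA gene 4930558J18Rik (distance 0.05), followed by Prdm1 and Gm7665. Igkc was nearest to Tigit, an inhibitory receptor gene (distance 0.08), followed by Ttc39c and Alox8. Tigit was counted at 1045 and 1230 in YFP-positive and 6817 and 4580 in YFP-negative Tregs. The order of the 4 libraries was the same as for Igkc, as it also was for other lower genes such as Klrg1 and Gzmb.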

How the data were processed

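The 4 libraries were grouped by the YFP sort in their titles. Magnetic beads enriched CD4 cells before 300000 Tregs were sorted at a purity above 95%, per the labels' protocols. The submitters' processing notes list the aligner HISAT2 2.0.5, the assembler StringTie 1.3.3b, the counter featureCounts 1.5.0-p3, the test DESeq2 1.16.1 and the mm10 build. DEGSeq 1.16.1 is the test named in the series' design text. Strand setting, annotation release and the treatment of multiply matching reads are not given in the sources used here. As deposited, the signal values appear to be gene read counts over a library size factor. The authors' log2 fold changes are YFP-positive over YFP-negative, and the p-values and adjusted p-values are the authors' own. In the authors' columns all 282 genes had adjusted p under 0.05 and changed by more than 1 on the log2 scale, so the table is a selected list and has no unselected background.

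Reads were inferred from the step of each column. All values (100%) were whole multiples within 0.01 reads, with size factors of 0.962 and 0.943 for YFP-positive and 1.02 and 1.11 for YFP-negative libraries. Only 13 to 40 values per library had up to 20 reads, and no count model was fitted to the contrast. The inferred reads were used for the counting intervals. The listed genes held 196337 to 329350 reads per library, which is not the depth. Limma 3.58.1 in R 4.3.3 was fitted to log2(value + 1) of the 282 genes, with a trend in the variance, and p-values were adjusted over them by Benjamini-Hochberg. On this scale the change of low genes is understated. The fit was tested on simulated data. The titles number the mice, without saying whether a number is an animal or a pool. P-values measure the spread between these libraries, with the variance drawn towards that of the 282 selected genes. The main fit has no mouse term. With a mouse block the limma adjusted p was 0.00197 for Tcrg-C1, Trav4n-4 and Igkc. Counting intervals are exact 95% binomial intervals and leave out duplicate reads of 1 molecule. Sequences and shared words came from GENCODE M21 transcripts, in which 5 of 5 segments had the same mm10 coordinates. All receptor rows were named, with the 3 nearest profiles of each, the listed genes within 1000 kb and the members of the marker lists. The members and lists were chosen with earlier results of these data known. Alternatives were pseudocounts, a filter on low values, no trend, a mouse block, single mice, leaving out each library, and adjustment over 14239 genes.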

Additional observations from a re-analysis of the deposited data

How the results depend on the processing

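Under the limma alternatives, the 5 segments kept their direction, and 5 of 5 passed in all of them except without YFP-negative mouse number 2, where 4 passed. There Trav19 had a log2 difference of -1.65, within a range of -2.10 to -1.39 over the 4 fits that leave out a library, which assume that a lone library varies as the other group does. The directions were fixed by the choice of genes whose groups do not overlap, so they are no sign of stability. With the mouse number as a replicate block, 5 segments and 279 of 282 listed genes passed, and deviations of the mouse number 1 libraries correlated over the 282 genes with Pearson's r of 0.395 and Spearman's rho of 0.411, although the labels do not say that a number is 1 source. Adjusted over the 14239 genes implied by the authors' p-values, 5 segments and 236 listed genes passed, and with a mean of at least 50 normalized counts 5 and 256 passed. In a single mouse number, a value with no test, the log2 difference of Tcrg-C4 was 4.49 and 6.15, each farther than 1 SE from 5.32. The share of words matched elsewhere was 51.0% with 31 bases and 8.24% with 100 bases for Tcrg-C1, and 2.88% with 31 bases for Trav19. The planned edgeR fit on inferred reads was not run, a choice made because few values were low. All values (100%) were still whole multiples of the step within 0.01 reads, and the counting intervals rest on these inferred reads. No 2 listed segments shared a 50-base word, so the planned sum of near-identical segments did not apply. The gamma constant sum in the report covers Tcrg-C1 and Tcrg-C4 alone, without Tcrg-C2 and Tcrg-C3. Read numbers limit Tcrg-C4 in YFP-negative and Trav4n-4 in YFP-positive Tregs, where no library exceeded 6 reads.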
